A study of Mus musculus with 9 samples.

Results

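The 6 genes described here, Myh1, Myh2, Myh3, Myh4, Myh7 and Myh8, encode the myosin heavy chains of skeletal muscle fibres. They were taken from the 47728 genes of the deposited count tables by Ensembl identifier and symbol, and all 6 had counts in all 9 libraries. The libraries were made from polyA RNA of C2C12, an established mouse myoblast line. Cells carried a knockdown of Cry1, a knockdown of Cry2 or neither (control), and RNA was taken on days 0, 3 and 5 of differentiation. Cry1 and Cry2 encode cryptochromes, repressors of the circadian clock. Growth medium contained 10% fetal bovine serum. From day 0 the medium contained 5% horse serum with 1% insulin, transferrin and selenium. The series title names an interest in how Cry2 acts on myogenic differentiation.

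The labels do not say which agent lowered the cryptochromes, what the control received, or whether the cells were clones or pools. Each genotype and day has 1 library. The 3 libraries of a genotype are therefore 3 days and not replicates of a condition, and p-values measure only how evenly a difference held over days or genotypes. Whether the days of a genotype came from the same culture is not stated in the labels. In bulk RNA, fewer cells of a type and less RNA per cell cannot be told apart. Levels below are read counts scaled to a common library size (CPM) with TMM factors, a correction for library composition. Library totals ran from 4731020 to 6412279 counts, and 3 counts, the limit that a count of 0 allows, corresponded to 0.44 to 0.635 CPM.

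Checks on the labels came out as follows. Cry1 fell by 1.22 ± 0.22 (SE) on the log2 scale in the Cry1 knockdown against control (adjusted p = 0.0265), and Cry2 fell by 1.74 ± 0.17 in the Cry2 knockdown (adjusted p = 0.0138). Muscle-lineage markers were present in every library: Myod1 lay between 82.5 and 158 CPM and Des, the muscle intermediate filament, between 1634 and 4215 CPM. Among markers of other cells, Hbb-bs and Adipoq had no count in any library, and Ptprc and Pecam1 did not exceed 0.212 and 0.185 CPM. The 6 endothelial and blood markers, which also include Cdh5, Kdr and Cd68, summed to between 1.06 and 2.78 CPM. Only 1 of them was tested. It gave -1.18 from day 0 to day 3 and 1.39 from day 3 to day 5, each with an unadjusted p under 0.05 and no call in edgeR. Other listed markers were expressed. The 5 adipocyte markers summed to between 8.68 and 36.2 CPM, most of it Cebpa and Pparg, and 3 of them could be tested: Fabp4, at most 2.65 CPM, rose from day 0 to day 5 by 2.97 ± 0.57 (adjusted p = 0.00175), and Cebpa fell by 1.31 ± 0.35 (adjusted p = 0.0102). The 5 osteoblast markers summed to between 27.3 and 61.7 CPM, nearly all of it Runx2, which fell from day 0 to day 3 and was the 1 gene tested. The 6 smooth muscle markers summed to between 1344 and 3622 CPM, most of it Acta2, and of 5 tested Lmod1, Acta2 and Smtn rose from day 0 to day 3. Acta2 fell from day 3 to day 5, and over the whole course Lmod1 and Smtn rose and Cnn1 fell. In the 3 genotype comparisons edgeR and DESeq2 called none of these adipocyte, osteoblast and smooth muscle markers; 2, 1 and 1 of them had an unadjusted p under 0.05 in at most 1 comparison each. The part of such cells in the heavy chain results was not tested. The 7 cardiac markers summed to between 4.25 and 65.0 CPM, of which Myh6 alone held 0.323 to 61.3 CPM. The atrial genes Nppa and Myl7 did not exceed 0.168 CPM, while Nppb reached 4.23, Tnni3 2.83 and Nkx2-5 1.93 CPM. Tnni3 rose from day 0 to day 3. In the Cry2 knockdown on day 0, Nppb (3.55 CPM) stood above Myh6. Myh6 moved over days and genotypes as Myh7 did and is described with it below; the part of cardiac-type expression in the Myh7 result was not tested.

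A muscle myosin heavy chain carries the motor head that splits ATP and pulls on actin, and a long tail that packs into the thick filament. Muscle changes its heavy chain as it develops: embryonic Myh3 and perinatal Myh8 give way to slow Myh7 or to the adult fast chains Myh2 (type IIa), Myh1 (type IIx) and Myh4 (type IIb). The chain a fibre makes sets much of its contraction speed, which is why the proportions of these genes are used to type fibres.

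In mm10, 5 of the genes lie head to tail on the plus strand of chromosome 11. Myh3 occupies bases 67078300 to 67102291, Myh2 67171027 to 67197517, Myh1 67200052 to 67224575, Myh4 67238029 to 67260446 and Myh8 67277124 to 67308634. Myh7 lies on the minus strand of chromosome 14, at 54970684 to 54994626, beside the cardiac gene Myh6. The coding sequences are alike, which limits how reads can be assigned. Of the 50-base words of the longest transcript, 32.1% in Myh1, 28.9% in Myh2, 28.2% in Myh7, 21.4% in Myh8 and 18.9% in Myh4 also stand in another gene's transcript, against 4.81% in Myh3. Myh1 shared most with Myh2 (19.7% of its words) and Myh7 with Myh6 (22.2%). How the authors' counting treated reads that fit several genes is not given in the sources used here, so values of all but Myh3 are uncertain to that extent. The library kit does not keep strand, and 8.11% of the exon bases of Myh1, 3.32% of those of Myh2 and 13.3% of those of Myh7 overlap antisense genes. The antisense gene Myhas, which covers the Myh1 overlap, had at most 3 counts in a library, and 9430073C21Rik opposite Myh2 at most 7. Opposite Myh7, Mhrt (484 bases of overlap) had at most 1 count and Gm29015 (142 bases) none, and Gm31251 (523 bases) was not analysed here.

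The upstream sequence is printed for the 4 neighbouring genes Myh1, Myh2, Myh4 and Myh8, because 3 of them were called together in the comparison of the knockdowns below and because their starts share words that Myh3 and Myh7 lack. The windows are the 250 bases before the RefSeq transcript start (GRCm38.p6, the assembly of mm10), plus strand, 5′ to 3′. Capitals mark a 14-base word shared by all 4 and a 15-base word shared by Myh1, Myh4 and Myh8. The windows are chr11:67199852-67200101 (Myh1), chr11:67170777-67171026 (Myh2), chr11:67237562-67237811 (Myh4) and chr11:67276874-67277123 (Myh8).
Myh1: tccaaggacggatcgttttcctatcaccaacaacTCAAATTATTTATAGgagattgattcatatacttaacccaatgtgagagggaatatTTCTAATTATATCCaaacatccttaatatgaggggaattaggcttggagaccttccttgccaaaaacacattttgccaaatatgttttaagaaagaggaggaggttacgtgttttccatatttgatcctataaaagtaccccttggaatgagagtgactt
Myh2: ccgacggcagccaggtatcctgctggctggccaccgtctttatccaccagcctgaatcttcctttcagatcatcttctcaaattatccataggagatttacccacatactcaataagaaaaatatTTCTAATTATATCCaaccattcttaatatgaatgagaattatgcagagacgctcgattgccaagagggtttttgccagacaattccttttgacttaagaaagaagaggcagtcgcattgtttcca
Myh4: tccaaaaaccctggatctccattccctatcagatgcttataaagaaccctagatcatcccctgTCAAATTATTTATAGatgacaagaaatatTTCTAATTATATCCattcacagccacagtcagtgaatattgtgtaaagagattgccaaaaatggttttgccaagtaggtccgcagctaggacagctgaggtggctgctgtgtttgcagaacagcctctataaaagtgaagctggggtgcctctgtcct
Myh8: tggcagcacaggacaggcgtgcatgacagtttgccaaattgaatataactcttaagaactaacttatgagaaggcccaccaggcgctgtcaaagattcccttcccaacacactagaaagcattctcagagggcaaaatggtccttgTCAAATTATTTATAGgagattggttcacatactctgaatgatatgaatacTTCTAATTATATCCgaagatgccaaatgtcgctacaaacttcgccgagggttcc

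The words were chosen because these genes share them. Among 32851 RefSeq windows of the same length, searched on both strands, TTCTAATTATATCC stood in 4 (0.0122%), which are the 4 printed. TCAAATTATTTATAG stood in 3 (0.00913%), those of Myh1, Myh4 and Myh8, and it contains a match to the MEF2 motif, which 2.92% of all windows hold. The 14-base word began 160, 125, 158 and 54 bases before the start in Myh1, Myh2, Myh4 and Myh8. Of commoner motifs, the E-box CANNTG, bound by MyoD family factors, stood in the windows of Myh3, Myh4, Myh7 and Myh8 and in 66.2% of all windows. The MCAT motif CATTCC, bound by TEAD factors, stood in Myh1, Myh4 and Myh7 and in 12.6% of all windows, and the CArG box stood in Myh4 and in 1.47%. TATAAA stood in Myh1, Myh3, Myh4 and Myh8 and in 12.4%. These are matches of letters and not shown sites. GENCODE M21 places the start of Myh1 50 bases upstream of the RefSeq start and that of Myh4 217 bases downstream of it, so the windows of these genes depend on the annotation used.

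**Figure D1:**
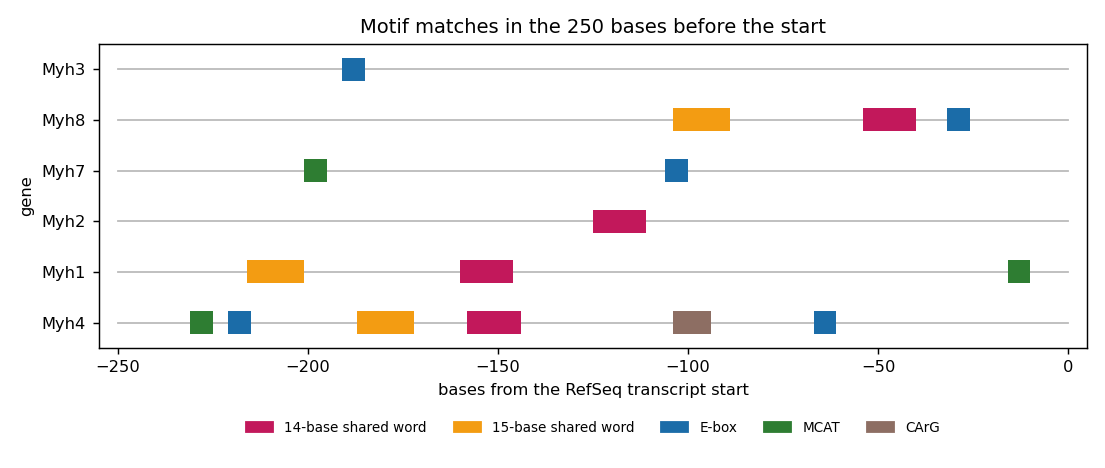
Motif matches in the 250 bases before the RefSeq start of the 6 genes, on either strand, with the horizontal axis in bases from the start and each block drawn to its length. The 14-base shared word appears in Myh1, Myh2, Myh4 and Myh8 and the 15-base word in Myh1, Myh4 and Myh8; TATAAA matches are left out, and the MEF2 matches lie inside the 15-base word.

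Myh3, the embryonic chain, had the highest level per length of the 6 genes in every library. In the control it went from 70.2 CPM on day 0 to 3577 on day 3 and 6811 on day 5. Cry1 knockdown libraries measured 184, 4883 and 6501 CPM on those days, and Cry2 knockdown libraries 50.1, 3302 and 7459 CPM. The Cry1 knockdown was the highest of the 3 on days 0 and 3 and the lowest on day 5. Values of different days did not overlap.

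Myh8, the perinatal chain, began near the limit of detection. Control libraries measured 1.17, 69.1 and 291 CPM on days 0, 3 and 5. With Cry1 knocked down the values were 6.52, 245 and 503 CPM. With Cry2 knocked down they were 0.646 CPM on day 0, which is 4 counts, then 26.04 and 197 CPM. The Cry1 knockdown was highest on each day. The Cry2 knockdown was lowest on days 3 and 5, while on day 0 its 4 counts and the 8 of the control could not be ordered (ratio 0.551, 95% counting interval 0.121 to 2.06). The Cry1 knockdown on day 3 stood above the Cry2 knockdown on day 5.

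Myh7, the slow or type I chain, which the heart also uses, was likewise highest with Cry1 knocked down on every day and lowest with Cry2 knocked down on days 3 and 5, its day 0 counts of 34 in the control and 17 in the Cry2 knockdown lying just within counting error. Control libraries measured 4.99, 56.5 and 239 CPM, against 14.4, 161 and 319 CPM with Cry1 knocked down. With Cry2 knocked down the values were 2.75, 23.9 and 94.1 CPM. The Cry2 knockdown on day 5 was thus below the Cry1 knockdown on day 3, the only such crossing apart from that of Myh8.

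Of the adult fast chains, Myh2 was the scarcest per length. Control libraries measured 0.293, 6.38 and 26.8 CPM of Myh2, against 1.78, 14.1 and 44.1 CPM with Cry1 knocked down and 0.161, 6.56 and 30.4 CPM with Cry2 knocked down. On day 0 these are 2, 12 and 1 counts, so the control and the Cry2 knockdown could not be ordered. Myh1 measured 8.505, 102 and 495 CPM in control libraries, 36.2, 222 and 706 CPM with Cry1 knocked down and 4.68, 66.5 and 532 CPM with Cry2 knocked down. Myh4, the chain of the fastest fibres, measured 2.20, 43.7 and 168 CPM in control libraries. Its values were 5.78, 115 and 291 CPM with Cry1 knocked down, and 0.484 (3 counts), 20.96 and 180 CPM with Cry2 knocked down. For all 3 fast chains the Cry1 knockdown was highest on each day. On day 5 the control was lowest for Myh1, and for Myh2 and Myh4 the control and the Cry2 knockdown differed by less than counting error.

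**Figure D2:**
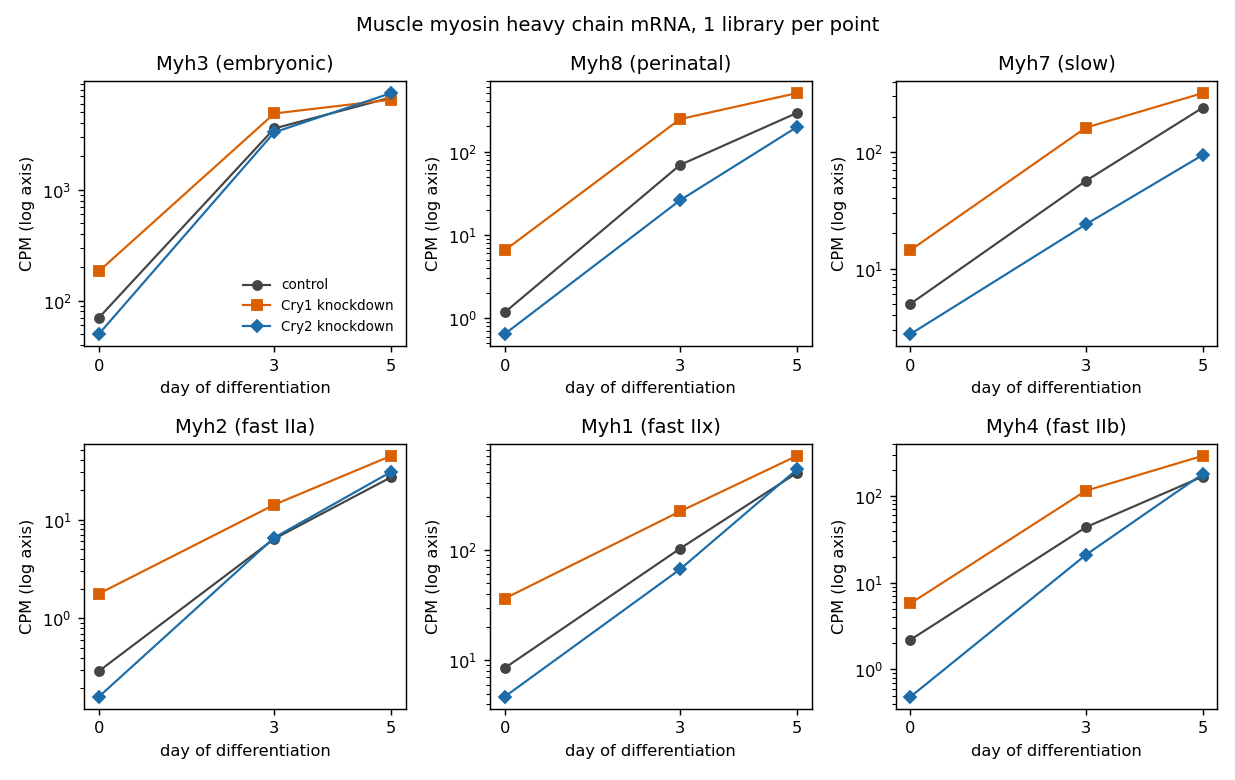
CPM on a log axis against the day of differentiation for each of the 6 genes, with 1 library per point and 1 line per genotype. The Cry1 knockdown is the highest point in 17 of the 18 combinations of gene and day, the exception being Myh3 on day 5, and the Cry2 knockdown is the lowest in 13, some of them by less than counting error.

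Differentiation raised the whole family. Tested over the 3 genotypes (n = 3 libraries per day), all 6 genes rose from day 0 to day 3, where 25.4% of the 13094 genes tested rose and 25.7% fell. The log2 fold changes ran from 3.09 ± 0.37 (SE) for Myh1 (adjusted p = 0.000148) to 5.39 ± 0.36 for Myh3 (adjusted p = 5.66e-06), with a median of 3.94 against 0.0055 over all genes tested. From day 3 to day 5, 5 of the 6 rose, where 14.7% of genes rose and 13.2% fell. Myh1 led with 2.36 ± 0.32 (adjusted p = 0.00152), and Myh7 was the least of the 5 with 1.65 ± 0.20 (adjusted p = 0.001). Myh3 gave 0.89 ± 0.30 in this step and did not pass (adjusted p = 0.056). It passed once 1 library was dropped in 3 cases, namely Cry1 knockdown day 0, Cry1 knockdown day 5 and Cry2 knockdown day 0 (adjusted p 0.0077 to 0.0334). Over the whole course all 6 rose, where 28.3% of genes rose and 27.9% fell, from 5.03 ± 0.25 for Myh7 (adjusted p = 5.43e-07) to 7.16 ± 0.42 for Myh8 (adjusted p = 1.30e-06). Values of day 3 and day 5 libraries overlapped for Myh8 and Myh7 and not for the other 4 genes. How many of all genes tested lacked such overlap was not counted, so this describes levels only.

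The late step showed how the chains differed in timing. In the control, Myh3 increased 50.9-fold from day 0 to day 3 (95% interval 46.5 to 55.9) and 1.90-fold from day 3 to day 5 (1.87 to 1.94). Myh1 in the same libraries increased 12.0-fold (9.18 to 16.0) and then 4.84-fold (4.43 to 5.30). In the Cry1 knockdown the late step of Myh3 was 1.33-fold (1.31 to 1.35), and in the Cry2 knockdown it was 2.26-fold (2.22 to 2.30). These exact intervals, and those for all ratios of 2 libraries below, cover counting error only, and with 1 library a side there is no test.

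Compared over the 3 days, the Cry1 knockdown had more of each of the 6 mRNAs than the control, but 1 of them passed the test. Myh7 rose by 1.06 ± 0.21 on the log2 scale (2.08-fold, adjusted p = 0.0387). Over all genes tested, 0.932% rose and 1.73% fell in this comparison. Myh8 gave 1.45 ± 0.32 (adjusted p = 0.0525), Myh2 1.01 ± 0.25 (adjusted p = 0.077) and Myh4 1.17 ± 0.32 (adjusted p = 0.0954). Myh1 gave 1.17 ± 0.33 (adjusted p = 0.104) and Myh3 0.64 ± 0.31 (adjusted p = 0.302). The median of the 6 was 1.11, against 0.013 over all genes. The call of Myh7 was lost in 8 of the 9 fits that left out 1 library, with adjusted p up to 0.179, and was kept without the Cry1 knockdown of day 5 (adjusted p = 0.00561). Without that library Myh8 and Myh1 passed too (adjusted p = 0.00985 and 0.0425). Myh8 also passed without the Cry2 knockdown of day 3 or day 5 (0.0402 and 0.0294), and Myh4 without the latter (0.0198). With only the 6 libraries compared, Myh7 did not pass (0.0804) and Myh8 and Myh4 did, and DESeq2 called 3 of the 6.

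The Cry2 knockdown against control gave no call among the 6 in edgeR, where 0.0458% of genes rose and 0.0382% fell. Myh7 had the largest difference, -1.23 ± 0.23 (adjusted p = 0.104), followed by Myh8 with -0.83 ± 0.33 (adjusted p = 0.369). Both had an unadjusted p under 0.05, and DESeq2 called 1 of the 6, Myh7 (-1.21, adjusted p = 0.000129). Without the Cry1 knockdown library of day 5, edgeR called Myh7 too (adjusted p = 0.0139). Myh4 gave -0.37 ± 0.33, Myh1 -0.26 ± 0.34, Myh3 -0.10 ± 0.30 and Myh2 0.12 ± 0.27, all smaller than or close to their standard errors.

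Set against each other, the knockdowns differed more. The Cry2 knockdown was lower than the Cry1 knockdown in 4 of the 6 genes, where 3.69% of all genes were lower and 4.24% higher. Myh7 differed by -2.28 ± 0.23 (4.87-fold lower, adjusted p = 0.00157) and Myh8 by -2.28 ± 0.34 (4.86-fold lower, adjusted p = 0.00671). Myh4 differed by -1.54 ± 0.33 (2.91-fold lower, adjusted p = 0.0261) and Myh1 by -1.43 ± 0.34 (2.70-fold lower, adjusted p = 0.0369). Myh2 with -0.89 ± 0.25 (adjusted p = 0.0676) and Myh3 with -0.74 ± 0.31 (adjusted p = 0.176) did not pass in this fit. DESeq2 called 5 of the 6, Myh2 included (-1.03, adjusted p = 0.0479), and without a filter on low counts edgeR called Myh2 (adjusted p = 0.00742) and Myh3 (0.01) too. The median of the 6 was -1.49, against -0.015 over all genes. Myh7 and Myh8 kept their calls in all 9 fits that left out 1 library, with adjusted p up to 0.0167 and 0.0389. Both Myh1 (adjusted p up to 0.162) and Myh4 (up to 0.127) lost their calls without the day 0 or day 3 library of either knockdown, and Myh1 also without the control of day 0 or day 5. With only the 6 libraries compared, neither passed (0.0776 and 0.0633). The 3 genotype comparisons share libraries, and whether Myh7 and Myh8 differed more than Myh3 was not tested.

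**Figure D3:**
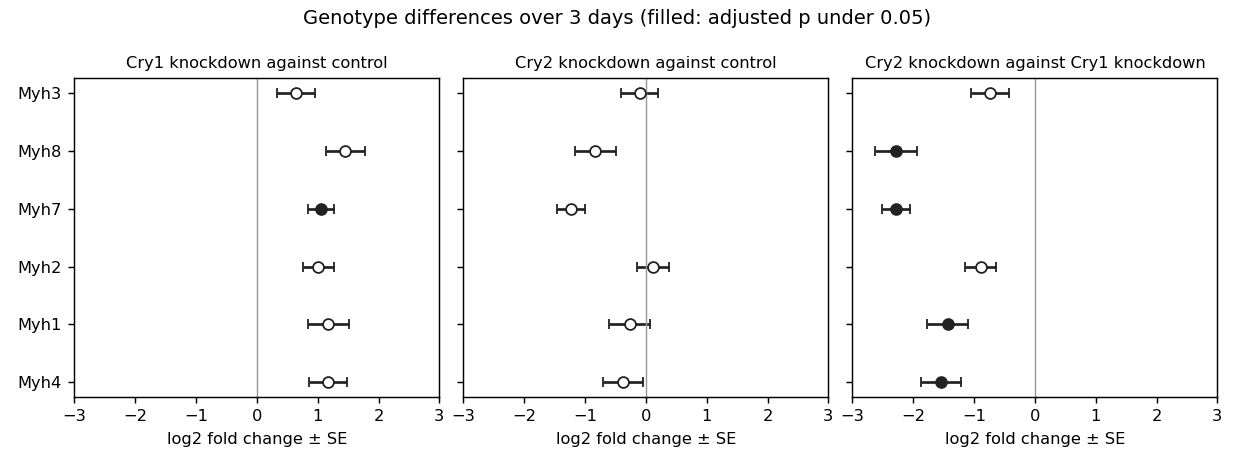
Log2 fold change ± SE of each gene in the 3 genotype comparisons, from the edgeR fit of genotype and day over 9 libraries; filled points have an adjusted p under 0.05. Myh7 is filled at 1.06 in the comparison of the Cry1 knockdown with control, no gene in that of the Cry2 knockdown, and Myh7, Myh8, Myh4 and Myh1 lie between -2.28 and -1.43 where the knockdowns are compared.

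Within days, the excess in the Cry1 knockdown was by the median largest on day 0 and smallest on day 5. The 6 genes had a median log2 ratio to control of 1.78 on day 0, 1.26 on day 3 and 0.61 on day 5, where the median over all genes tested was 0.016, -0.013 and 0.022. Myh1 was 4.25-fold higher than control on day 0 (3.18 to 5.77), 2.17-fold on day 3 (1.97 to 2.39) and 1.42-fold on day 5 (1.36 to 1.496). Myh8 was 5.56-fold higher on day 0 (2.59 to 13.7), 3.55-fold on day 3 (3.18 to 3.97) and 1.73-fold on day 5 (1.63 to 1.84). Myh3 went from 2.63-fold (2.36 to 2.92) and 1.37-fold (1.34 to 1.39) to a ratio of 0.955 on day 5 (0.941 to 0.968). Myh7 and Myh4 showed no decline from day 0 to day 3 beyond counting error. Myh7 was 2.88-, 2.86- and 1.33-fold higher on days 0, 3 and 5, and Myh4 2.63-, 2.63- and 1.73-fold. The day 0 ratio of Myh2 rested on 12 counts against 2 and had an interval of 1.35 to 55.8. On each day every gene but Myh3 on day 5 had more in the Cry1 knockdown by more than counting error.

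In the Cry2 knockdown the median log2 ratio to control was -0.77, -0.84 and 0.10 on days 0, 3 and 5. Myh7 stayed low: its ratio was 0.551 on day 0 (0.289 to 1.01), 0.424 on day 3 (0.339 to 0.526) and 0.393 on day 5 (0.354 to 0.436). Myh8 had ratios of 0.377 on day 3 (0.306 to 0.462) and 0.677 on day 5 (0.626 to 0.733). Myh4 went from 0.48 on day 3 (0.377 to 0.607) to 1.07 on day 5 (0.978 to 1.18), an interval that includes equal levels. Myh1 went from 0.65 on day 3 (0.565 to 0.746) to 1.07 on day 5 (1.02 to 1.13). By day 5, then, only Myh7 and Myh8 of the 6 were below control in the Cry2 knockdown library.

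**Figure D4:**
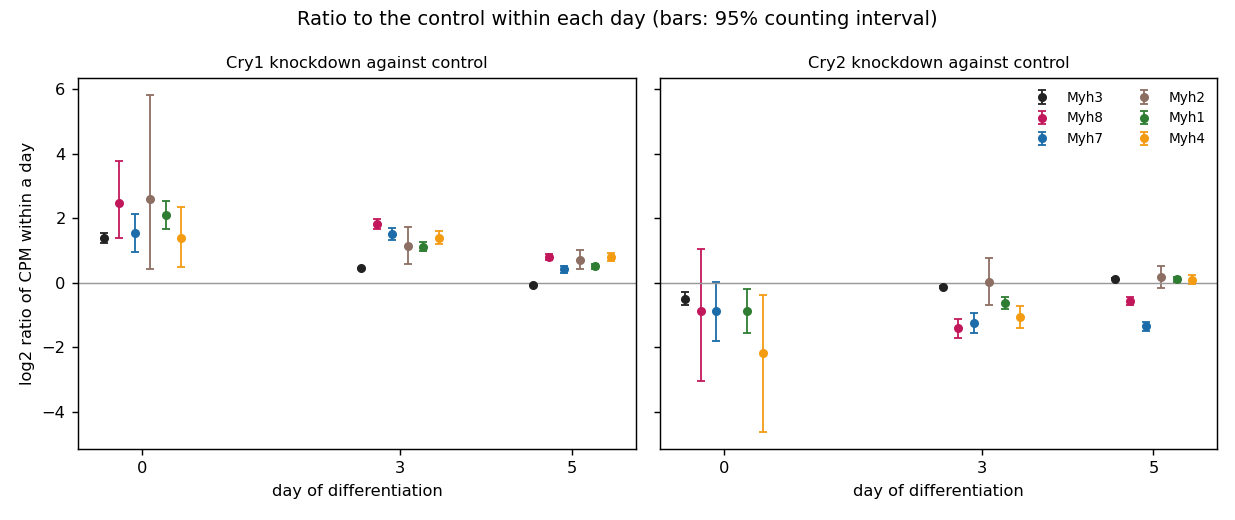
Log2 ratio of CPM to the control library of the same day, for the Cry1 knockdown (left) and the Cry2 knockdown (right), with 95% counting intervals; Myh2 on day 0 is left out on the right, where both libraries had at most 2 counts. The points of the Cry1 knockdown move toward 0 from day 0 to day 5, and on day 5 those of the Cry2 knockdown lie near 0 except Myh7 and Myh8.

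Because the genotypes differed by different amounts on day 0 and later, the change from day 0 to days 3 and 5 was compared between genotypes. None of the 6 passed in any of the 3 comparisons of this differentiation response in edgeR. For the Cry1 knockdown against control, 0% of 13608 genes were called, and 1 member, Myh3, had an unadjusted p under 0.05 (-1.18 ± 0.32, adjusted p = 0.782). For the Cry2 knockdown against control, 0.0367% of genes were called and no member had an unadjusted p under 0.05. For the Cry2 against the Cry1 knockdown, 0.11% were called and 3 members had an unadjusted p under 0.05. These were Myh3 with 1.69 ± 0.33 (adjusted p = 0.224), Myh1 with 1.91 ± 0.62 (adjusted p = 0.637) and Myh2 with 2.55 ± 0.94 (adjusted p = 0.69). DESeq2 called none, none and 1 (Myh3, adjusted p = 0.00502) of the 6 in these comparisons, and edgeR called Myh3 in the last of them without the control of day 3 or day 5 (0.00557 and 0.00924). This fit has 2 residual degrees of freedom.

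Proportions among the chains need levels per length, and CPM per kilobase of annotated exon was used. Myh3 made up between 76.9% (Cry1 knockdown, day 0) and 96.5% (Cry2 knockdown, day 3) of the summed level of the 6 genes. Myh1 came second and Myh2 last in all 9 libraries. The share of the 5 chains other than Myh3 was 17.3% on day 0, 5.85% on day 3 and 12.6% on day 5 in the control. With Cry1 knocked down it was 23.1%, 10.6% and 18.6%, and with Cry2 knocked down 12.8%, 3.51% and 10.6%. By value it was lowest on day 3 in each genotype, and on each day it was highest in the Cry1 knockdown and lowest in the Cry2 knockdown. By the length of the longest transcript Myh3 made up 74.3% to 95.9%, and by words found in no other gene 68.3% to 94.6%. The order of Myh8, Myh7 and Myh4 depended on the length used, since the annotated exons of Myh8 sum to 11772 bases and its longest transcript to 6149. With the latter, Myh8 and not Myh1 came second in the Cry1 knockdown on day 3.

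**Figure D5:**
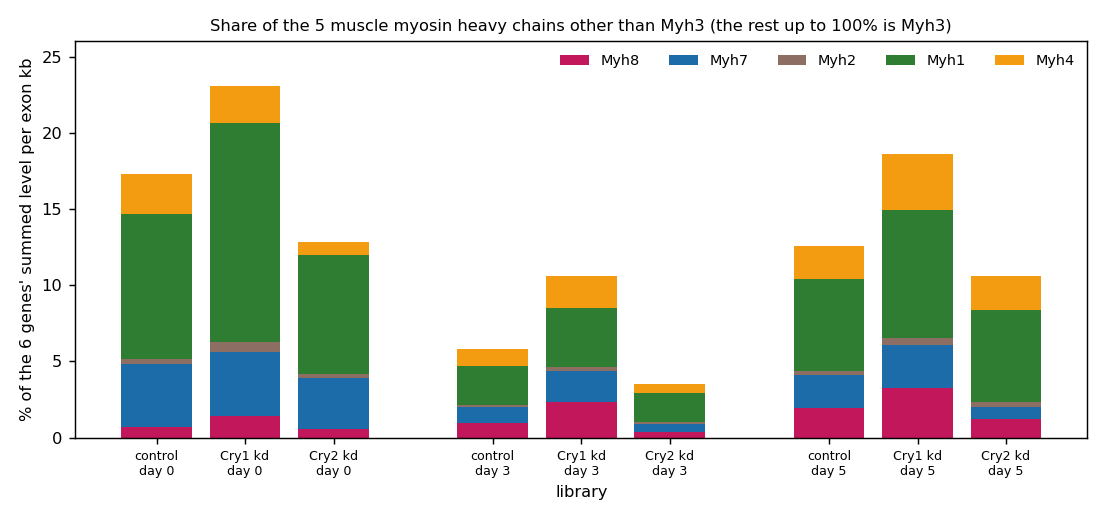
Share of Myh8, Myh7, Myh2, Myh1 and Myh4 in the summed level of the 6 genes per kilobase of exon, in percent, stacked for each of the 9 libraries, with Myh3 as the remainder. Within each genotype the stack is shortest on day 3 (3.51% to 10.6%), and on every day the Cry1 knockdown has the tallest stack.

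Each chain was then set against Myh3 in the same library. Per kilobase, Myh1 stood at 11.5% of Myh3 on day 0 in the control (8.63% to 15.2%), at 2.73% on day 3 (2.51% to 2.96%) and at 6.94% on day 5 (6.67% to 7.21%). With Cry1 knocked down it stood at 18.7%, 4.33% and 10.3%, and with Cry2 knocked down at 8.92%, 1.92% and 6.80%. Myh7 also dipped in the control, at 4.99%, 1.11% and 2.47% of Myh3. For Myh8, the other developmental chain, a dip in the control could not be told: it stood at 0.859% of Myh3 on day 0 (0.369% to 1.71%), 0.993% on day 3 (0.899% to 1.10%) and 2.20% on day 5 (2.09% to 2.31%), the first value resting on 8 counts. With Cry1 knocked down Myh8 went from 1.82% (1.32% to 2.46%) to 2.58% (2.45% to 2.72%) and 3.98%. With Cry2 knocked down the values were 0.664% (0.18% to 1.72%, 4 counts), 0.406% (0.337% to 0.484%) and 1.36%. In the Cry2 knockdown on day 5, Myh7 reached 0.887% of Myh3 (0.81% to 0.969%) against 3.45% in the Cry1 knockdown (3.29% to 3.62%). These shares use 1 library each.

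Of the 8 other myosin heavy chain genes, 5 could be tested. The nonmuscle chains Myh9 and Myh10, which build the contractile fibres of nonmuscle cells, fell from day 0 to day 3, by 0.57 ± 0.11 for Myh9 (adjusted p = 0.00266) and 1.22 ± 0.10 for Myh10 (adjusted p = 1.43e-05), whereas Myh7b, Myh6 and Myh14 rose. From day 3 to day 5 both had positive values that did not pass (0.28 ± 0.11 and 0.21 ± 0.10), and over the whole course Myh10 was called and Myh9 was not (adjusted p = 0.0515). Myh10 was between 260 and 294 CPM on day 0 and between 122 and 151 CPM on day 5. In CPM per exon kilobase, Myh9 was at 198 and Myh3 at 11.6 in the control on day 0. On day 5 Myh9 was at 158 and Myh3 at 1124, so the order of the 2 genes was reversed.

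Myh6 and Myh7b are relatives of the slow chain. Myh6 went from 1.32 to 11.3 and 53.3 CPM over the days in control libraries, from 2.52 to 34.4 and 61.3 CPM with Cry1 knocked down, and from 0.323 (2 counts) to 6.35 and 21.9 CPM with Cry2 knocked down. It was lower in the Cry2 than in the Cry1 knockdown by -1.97 ± 0.29 (adjusted p = 0.00618), close to the value of Myh7, with which it shares sequence. Myh7b rose in the Cry1 knockdown against control by 1.15 ± 0.21 (adjusted p = 0.0316). Myh14, a nonmuscle chain, was higher in the Cry2 than in the Cry1 knockdown by 0.98 ± 0.24 (adjusted p = 0.0397 in edgeR). DESeq2 did not call Myh14 there and called 1 of the listed other chains, Myh6. Myh13, the chain of eye muscles, had at most 9 counts in a library, Myh11 of smooth muscle at most 2, and Myh15 none.

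Partners of the heavy chains in the thick filament, such as light chains and assembly factors, were listed too. Of 19 listed genes, 17 were tested, and 15 rose and 1, the chaperone Hsp90aa1, fell from day 0 to day 3, where 25.4% of all genes rose and 25.7% fell. In the Cry1 knockdown against control, 16 of the 17 had a positive value and 1 passed: Mybpc2, the fast myosin-binding protein C (1.997 ± 0.214, adjusted p = 0.00707). Over all genes tested, 0.932% rose and the median value was 0.013. Of the 17, 11 had an unadjusted p under 0.05, and DESeq2 called 2, Mybpc2 and Smyd1. In the Cry2 knockdown against control edgeR called none, 5 had an unadjusted p under 0.05, and DESeq2 called 1. That gene was Myl2, the slow regulatory light chain, whose value was the highest of the list and positive (3.06 ± 0.41, adjusted p = 0.0817 in edgeR), opposite in sign to that of the slow heavy chain Myh7. Myl2 had no count on day 0 in any genotype and 2 and 18 counts on days 3 and 5 in the control, against 17 and 51 with Cry1 knocked down and 21 and 142 with Cry2 knocked down. In the Cry2 against the Cry1 knockdown it gave 1.22 ± 0.35 (adjusted p = 0.0837), and 4 others fell: the slow binding protein Mybpc1 (-1.73 ± 0.24), the light chain kinase family gene Mylk4 (-1.66 ± 0.31), Mybpc2 (-0.98 ± 0.20) and Smyd1 (-0.97 ± 0.19), a methyltransferase needed for myosin assembly. Their adjusted p ran from 0.00547 to 0.0239 in edgeR, which called 3.69% of all genes lower. DESeq2 also called 4 in this comparison, with Myom3 in place of Mybpc2. The median of the 17 was 0.63, 0.062 and -0.55 in these comparisons, against 1.11, -0.32 and -1.49 for the 6 heavy chains. Within days their median log2 ratio to control in the Cry1 knockdown was 1.39, 0.68 and 0.17 on days 0, 3 and 5, which also fell over time.

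Lists of fast and slow fibre isoforms other than the heavy chains were counted in the same comparisons. Of 12 fast isoforms tested, 4 rose in the Cry1 knockdown against control: the calcium buffer Pvalb (2.98 ± 0.41), Mybpc2, the glycolytic enzyme Pgam2 (0.79 ± 0.12) and the Z-disc actinin Actn3 (0.56 ± 0.08). Over all genes tested, 0.932% rose in this comparison. DESeq2 called the same 4, and 10 had an unadjusted p under 0.05. Pvalb had no count on day 0 in the control and the Cry2 knockdown. In the Cry2 against the Cry1 knockdown 6 of the 12 fell, among them Pvalb (-1.93 ± 0.37), the calcium store protein Casq1 (-0.74 ± 0.18) and the calcium pump Atp2a1 (-0.74 ± 0.18). Of all genes tested, 3.69% were lower there. Among the 12 fast isoforms 8 had an unadjusted p under 0.05, and DESeq2 called 2, Actn3 and Atp2a1. Of 11 slow isoforms tested, edgeR called none in the Cry1 knockdown against control, where 7 had an unadjusted p under 0.05 and DESeq2 called 1. In the Cry2 against the Cry1 knockdown 2 fell, Mybpc1 and the actinin Actn2 (-1.71 ± 0.25). There 6 had an unadjusted p under 0.05, and DESeq2 called 3, Mybpc1, Actn2 and Tnnt1. The medians of the fast and slow lists in the Cry1 knockdown against control were 0.73 and 0.78, against 0.013 over all genes. In the Cry2 knockdown against control they were 0.20 and 0.066, against -0.32 for the 6 heavy chains and -0.00072 over all genes. Positive values there were found in 10 of the 12 fast and 6 of the 11 slow isoforms. In that comparison edgeR called none of either list, and 3 fast and 6 slow isoforms had an unadjusted p under 0.05. DESeq2 called 1 of them, Myl2. No test compared the fibre types.

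Of 25 tested regulators of fibre type, 2 rose in the Cry1 knockdown against control, the MEF2 factor Mef2c (1.23 ± 0.19, adjusted p = 0.0185) and Eya4 (0.85 ± 0.10, adjusted p = 0.00826), a transcriptional coactivator. Over all genes tested, 0.932% rose. The list as a whole did not shift upward: its median was -0.027, with 12 positive and 13 negative values. In the Cry2 knockdown against control edgeR and DESeq2 called none, and 3 had an unadjusted p under 0.05. The median there was -0.15, with 20 negative values. In the Cry2 against the Cry1 knockdown 6 fell, led by the homeobox factor Prox1 (-2.37 ± 0.54), Mef2c (-1.28 ± 0.20), Eya4 (-1.18 ± 0.11) and the MCAT-binding factor Tead4 (-0.59 ± 0.13). Of all genes tested, 3.69% were lower. The median of the 25 was -0.16, with 16 negative and 9 positive values, against -0.015 over all genes. DESeq2 called 4 there, Mef2c, Eya4, Tead4 and Tbx15. It did not call Prox1, which had no count in the Cry2 knockdown on day 0. Myog, the factor that starts terminal differentiation, had 58.7 CPM on day 0 in the control, 180 in the Cry1 knockdown and 35.4 in the Cry2 knockdown, and that day Myh3, Myh1 and Myh4 had the same order beyond counting error. On day 5 it had 958, 998 and 716 CPM. Its response to differentiation was larger in the Cry2 than in the Cry1 knockdown by 1.84 ± 0.18 (adjusted p = 0.0273). Its part in the heavy chain differences was not tested.

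The level profiles of the heavy chains were compared with those of 10250 genes by the correlation of log2(CPM + 1) over the 9 libraries, which is a description dominated by the change over days. Nearest to Myh3 were the fast troponin gene Tnnt3 (r = 0.998), the leiomodin gene Lmod3 and the LIM protein gene Csrp3. Nearest to Myh8 were Cd36 (0.994), Myh4 and Mef2c, and nearest to Myh7 were Myh6 (0.996), Dgkd and Myh8. Nearest to Myh4 were Myh8 (0.994), Adam12 and Col5a1, nearest to Myh1 were Ablim1 (0.999), Socs6 and Snx8, and nearest to Myh2 were Nrap (0.998), Usp28 and Nlrc3. Between members, r was lowest for Myh3 with Myh7 (0.92) and highest for Myh4 with Myh8 (0.994), and all points share libraries and depth.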

How the data were processed

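PolyA RNA of 9 C2C12 libraries, 1 for each of 3 genotypes on 3 days, was measured by RNA sequencing. The deposited values are raw counts of reads per gene. Per the submitters' processing notes, the authors used CASAVA 1.8, the aligner HISAT2 2.0.2 with the build mm10, and the counter featureCounts 1.4.6 from Subread. The annotation used for counting and the handling of multiply mapped reads are not given in the sources used here. Groups came from the sample labels.

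TMM normalisation, filterByExpr and quasi-likelihood F tests were run in edgeR 4.0.16 (R 4.3.3, limma 3.58.1) over all genes. A gene was called ("rose", "fell", "passed") where the Benjamini-Hochberg adjusted p was under 0.05. An additive model of genotype and day over 9 libraries, with 4 residual degrees of freedom, gave the comparisons of genotypes and of days. A model with an interaction of genotype and stage gave the differentiation response, stage being day 0 or the 2 later days, which also had a term of their own. Each SE is the size of the log2 fold change over the square root of the F statistic. The script was tested on simulated data. Medians within days used a prior count of 1, and ratios of libraries have exact 95% intervals.

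Gene positions, lengths and transcripts came from GENCODE M21, and promoter windows from RefSeq, where all 6 genes matched by symbol. MEF2 and CArG motifs were searched by their degenerate patterns.

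The 6 genes, the gene lists and the cell type markers were chosen with earlier results of these data known. The rule named all 6 members, Cry1 and Cry2, contrasting heavy chains, up to 4 called genes of largest change per list and comparison, and the 3 genes of nearest profile (mean of at least 5 CPM, gene models without a name skipped). Alternatives were RLE size factors, no filter or a minimum of 1 CPM in 3 libraries, DESeq2 1.42.0, only the 6 libraries compared, each library left out in turn, a prior count of 5, and other gene lengths. Further steps ran in Python 3.11.15 (numpy 2.4.6, pandas 2.3.3, scipy 1.17.1, matplotlib 3.10.9).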

Additional observations from a re-analysis of the deposited data

Results flagged for a closer look

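The knockdowns differed from each other in 4 heavy chain genes by the test of that difference itself, Cry2 knockdown against Cry1 knockdown over 3 days. The log2 difference was -2.28 ± 0.23 (SE) for Myh7 and -2.28 ± 0.34 for Myh8, and the Cry2 knockdown was lower on 3 of 3 days for both. It was -1.54 ± 0.33 for Myh4 and -1.43 ± 0.34 for Myh1, again lower on 3 of 3 days. These days are the libraries of the test itself and add no separate support. The calls of Myh4 and Myh1 were lost in 4 and 6 of the 9 fits that left out 1 library. Myh7 and Myh8 kept theirs in all 9. The adjusted p from edgeR were 0.00157, 0.00671, 0.0261 and 0.0369. With 1 library for each genotype and day, these values rest on no replicate of any genotype and day.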

How the results depend on the processing

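Over days, the 6 genes kept their directions and every call under every alternative, and Myh3 from day 3 to day 5 gained a call without a filter (adjusted p = 0.000671) and with only the 6 libraries compared (0.0113). In the Cry1 knockdown against control, 1 of the 6 was called as reported, 6 without a filter on low counts, 2 with only the 6 libraries compared, 3 by DESeq2, and 0 to 3 with each library left out in turn. In the Cry2 knockdown against control the count was 0 as reported, 2 without a filter, 1 with only the 6 libraries, 1 by DESeq2 and 0 to 1 with a library left out. In the Cry2 against the Cry1 knockdown it was 4 as reported, 6 without a filter, 5 by DESeq2, 2 with only the 6 libraries and 2 to 4 with a library left out. In the differentiation response it was 0 as reported in all 3 comparisons. Without a filter it became 1 in the Cry1 knockdown against control and 2 in the Cry2 against the Cry1 knockdown, where DESeq2 called 1 (Myh3) and leaving out a library 0 to 1. Without a filter, 919 and not 349 genes were called in the Cry1 knockdown against control, and 316 and not 11 in the Cry2 knockdown against control. DESeq2 called 82 in the latter and 610, not 1038, where the knockdowns were compared, and the ranges with a library left out were 27 to 366, 0 to 17 and 258 to 1137. For the 3 responses the numbers were 0, 5 and 15 genes as reported, 72, 48 and 133 without a filter, 15, 10 and 44 by DESeq2, and up to 126, 160 and 180 with a library left out. From day 3 to day 5, DESeq2 called 2303 and not 3653 genes, and leaving out a library gave 2045 to 3739. Signs that turned with a library left out belonged to values that were not called. In the Cry2 knockdown against control these were Myh3 (-0.44 to 0.19), Myh2 (-0.24 to 0.30) and Myh4 (-1.32 to 0.053). In the response they were Myh4 in the Cry1 knockdown against control (-0.85 to 0.30), Myh7 (-0.72 to 0.057) and Myh8 (-0.88 to 0.51) in the Cry2 knockdown against control, and Myh7 between the knockdowns (-0.42 to 0.64). The Myh8 response, 0.00034 as reported, was also -0.0053 with RLE factors, -0.0011 with a 1 CPM filter and -0.055 in DESeq2. The cause of these changes was not tested. Leaving out a day 0 library left no estimate of that genotype's response. No paired analysis was possible because each genotype and day has 1 library and day is already a term of the fit.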
